A study of Mus musculus with 74 samples.

Results

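Protocadherins are the largest group of the cadherin superfamily, and the peaks of KRAB zinc finger proteins (KRAB-ZFPs) near their genes were examined here. A gene was included when its symbol in the gencode vM1 annotation of the mouse build mm9 started with Pcdh. This gave 38 gene records of 37310, 25 of them in the 3 neighbouring clusters on chromosome 18 and 13 elsewhere. A peak was included when the midpoint of its 200 bp window lay in the body of such a gene or within 50 kb of it. The rule took 87 of 53011 peaks, 57 near single genes and 30 near clustered genes. The outermost single-gene peaks inside the limit were a Gm13235 peak 48352 bp from Pcdh8 (fold enrichment 10.21) and a Gm14406 peak 47188 bp from Pcdh7 (26.48). The nearest ones outside it were a Gm8898 peak 54419 bp from Pcdh1 (13.62) and a Gm14406 peak 63406 bp from Pcdh18 (24.3). For the clusters no further peak lay between 50 and 100 kb.

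KRAB-ZFPs are repressors that bind DNA through arrays of zinc fingers and recruit corepressors through a KRAB domain. The series mapped where they bind by chromatin immunoprecipitation and sequencing (ChIP-seq) of epitope-tagged proteins. It holds 74 samples, 68 for KRAB-ZFPs and 6 for inputs and control ChIPs, and 67 KRAB-ZFPs had peaks that could be tied to a label. In F9 EC cells, a mouse embryonal carcinoma line, 18 carried a FLAG tag and 40 an HA tag. Of the HA-tagged ones, 30 had input plus HA_control as background in peak calling and 10 had Gm14296_control. In B6 ES cells, which are embryonic stem cells, 9 carried an HA tag and were called against input alone. All tagged proteins were overexpressed from stably integrated vectors, and no peaks of the controls were analysed here, so the background enters only through peak calling. Each KRAB-ZFP was assayed once, so no peak has a replicate error. The number of peaks per KRAB-ZFP ran from 52 to 5685 and the tags counted inside them from 1681 to 540220. These are not library depths, which are unknown here, so a gene without a peak is not shown to be unbound.

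Protocadherins are cadherins of the cell surface, found above all on neurons. The alpha and gamma clusters are organised as arrays of variable first exons, each with its own promoter. A neuron expresses a small, variable set of the clustered genes, which gives it a surface identity used for self-avoidance of its branches. Most promoters of the clustered genes carry a conserved element with the core letters CGCT, and promoter choice involves CTCF, cohesin and DNA methylation. The single genes, also called non-clustered protocadherins and mostly of the delta class, are separate genes with roles in cell sorting, axon growth and synapses. Pcdh15, outside the delta class, forms the tip links of hair cells in the inner ear.

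The windows that best show what the peaks near single genes rested on are printed here from mm9, on the plus strand, 5′ to 3′. Capitals mark the 8-base word whose share among the windows of the same KRAB-ZFP away from protocadherin genes exceeded that of the other KRAB-ZFPs by most percentage points, on either strand. The Zfp457 window, chr14:84946538-84946737, lies 9770 bp beyond Pcdh17 in intergenic sequence that occurs once in the genome, and it held no copy of that KRAB-ZFP's word. It is shown as the peak with the highest fold percentile within its own sample.
Zfp457 near Pcdh17: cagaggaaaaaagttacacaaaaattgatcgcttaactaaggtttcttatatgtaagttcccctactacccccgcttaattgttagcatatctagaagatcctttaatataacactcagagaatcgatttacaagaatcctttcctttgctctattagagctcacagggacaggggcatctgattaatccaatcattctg
The Gm14406 window, chr10:73807506-73807705, lies in an intron of Pcdh15 and is shown because this KRAB-ZFP gave the most single-gene peaks. Its 24-base words occurred a median of 5017 times in the genome.
Gm14406 in Pcdh15: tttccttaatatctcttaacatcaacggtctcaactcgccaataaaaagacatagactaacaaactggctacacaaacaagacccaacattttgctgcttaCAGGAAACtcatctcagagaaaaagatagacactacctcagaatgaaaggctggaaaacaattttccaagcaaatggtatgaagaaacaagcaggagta
The Gm21082 windows near Pcdh8, chr14:80199430-80199629, and near Pcdh7, chr5:58082622-58082821, are shown because they are copies of 1 repeated sequence on opposite strands, with a longest identical run of 53 bases between 1 and the reverse complement of the other.
Gm21082 near Pcdh8: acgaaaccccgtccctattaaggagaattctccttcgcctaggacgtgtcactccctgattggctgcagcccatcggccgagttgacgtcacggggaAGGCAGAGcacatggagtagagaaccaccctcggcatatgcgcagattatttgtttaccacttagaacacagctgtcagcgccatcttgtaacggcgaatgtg
Gm21082 near Pcdh7: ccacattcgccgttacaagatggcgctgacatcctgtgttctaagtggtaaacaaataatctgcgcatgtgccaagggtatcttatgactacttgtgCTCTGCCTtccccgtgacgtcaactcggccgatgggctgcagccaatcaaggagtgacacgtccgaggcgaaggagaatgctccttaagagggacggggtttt
The Zfp661 window, chr3:45179925-45180124, lies 2296 bp before Pcdh10, in an intron of 2610316D01Rik. It was added after its values were seen, as the sole single-gene peak of the KRAB-ZFP with the most peaks at the clustered genes.
Zfp661 near Pcdh10: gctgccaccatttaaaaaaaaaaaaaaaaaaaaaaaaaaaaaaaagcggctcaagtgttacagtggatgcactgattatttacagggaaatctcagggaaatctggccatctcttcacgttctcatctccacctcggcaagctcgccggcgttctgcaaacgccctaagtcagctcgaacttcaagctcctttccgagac

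The first question was whether the clustered protocadherin genes, whose promoters are read by sequence-specific zinc finger proteins, lay near KRAB-ZFP peaks at all. Zfp661 gave 8 of the 30 peaks near these genes, and all 8 lay at the gamma cluster. The other 22 came from 12 KRAB-ZFPs with 1 to 4 peaks each. The alpha cluster had 10 peaks, the beta cluster 6 and the gamma cluster 14. Counted over the span from the first to the last gene, the density was 31.1 peaks per Mb in alpha, 11.7 in beta and 41.8 in gamma, against 20.7 over all chromosomes and 20.2 over chromosome 18. The vM1 annotation joins most alpha genes into the record Pcdha11 and all gamma genes into the record Pcdhgc5, with 10 transcripts each, whereas the later RefSeq gene table, used for names only, lists 14 alpha, 22 beta and 22 gamma genes. Peaks in the gamma array are therefore given by distance and not by gene. The alpha and gamma records were the 2 with peaks in their bodies, 8 and 7 peaks, and none of the 22 beta records had one.

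**Figure D1:**
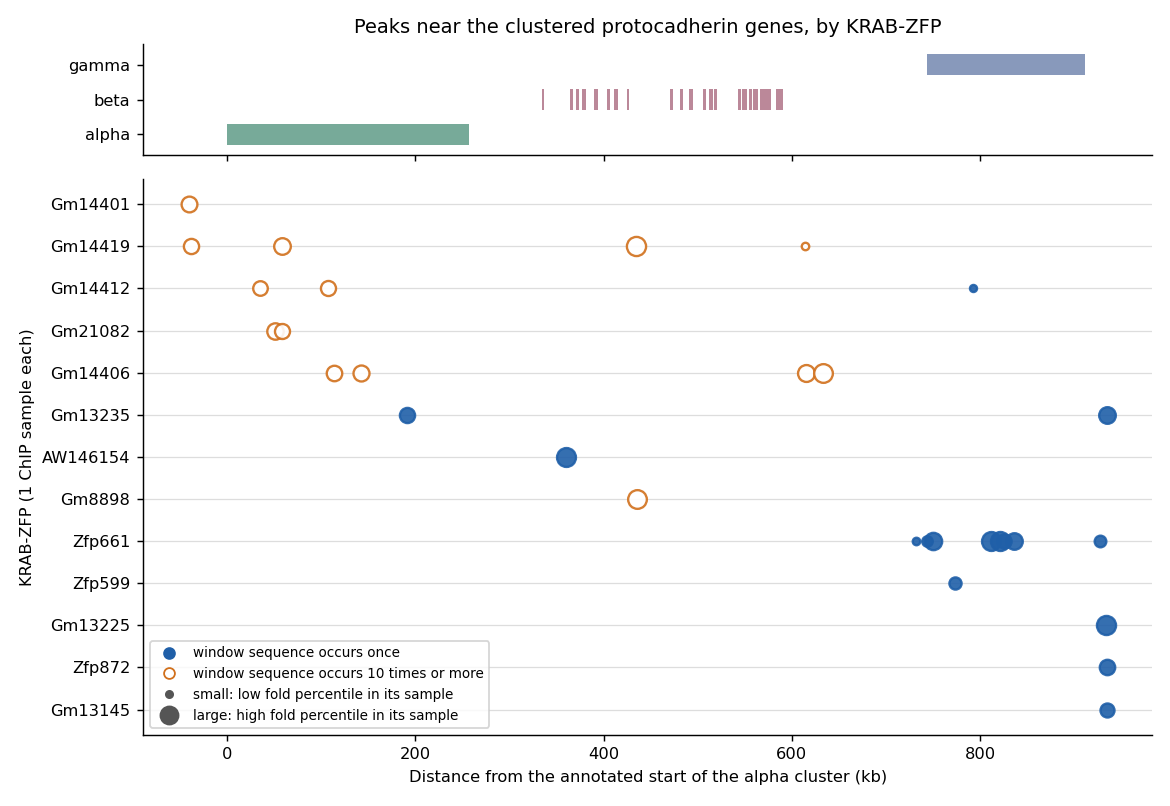
Position of the 30 peaks near the clustered protocadherin genes, as distance in kb from the annotated start of the alpha cluster, with 1 line per KRAB-ZFP and the gene records above. Marker size grows with the percentile of the peak's fold enrichment among all peaks of its own KRAB-ZFP, filled markers are windows whose sequence occurs once in the genome and open ones windows that occur 10 times or more. The 14 gamma peaks are all filled, while 9 of 10 alpha and 5 of 6 beta peaks are open.

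The Zfp661 peaks at the gamma cluster ran from 12595 bp before its first annotated start to 16067 bp beyond its end. In order along the chromosome they were chr18:37821295-37821494 with a fold enrichment of 20.05 from 27 tags, chr18:37833823-37834022 with 22.56 from 34 tags and chr18:37839795-37839994 with 42.31 from 73 tags. A group of 4 followed further into the array. Its first pair had the highest folds of Zfp661 at the gamma cluster, chr18:37901586-37901785 with a fold of 72.4 from 132 tags and chr18:37911137-37911336 with 82.72 from 142 tags. The next were chr18:37915267-37915466 with 28.83 from 43 tags and chr18:37925467-37925666 with 36.9 from 84 tags. The last, chr18:38017495-38017694, had a fold of 23.81 from 51 tags and lay in an intron of Diap1, the actin-nucleating formin gene next to the cluster. Over all 1065 Zfp661 peaks the fold had a median of 29.61, quartiles of 23.81 and 40.11 and a highest value of 205.54. The 2 strongest gamma peaks ranked at the 95.0 and 96.0 percentiles of Zfp661 and the weakest at the 2.35 percentile. The gamma peaks thus spanned nearly the whole range of percentiles, though not of folds, and did not form a class of high folds. Their lowest fold, 20.05, was also the lowest of all Zfp661 peaks, which were called with an enrichment threshold of 20.

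Several of these peaks sat at annotated gamma promoters. Of 8 windows, 4 had their midpoints within 1 kb of an annotated transcript start, at 67, 63 and 61 bp before 3 of the starts and 332 bp after the fourth. The vM1 annotation has 10 distinct gamma starts, of which 4 thus had a Zfp661 peak within 1 kb. None of the 11 alpha or 26 beta starts had one. The windows 61 bp before and 332 bp after a start were the 2 exonic ones among the peaks near protocadherin genes. The first lay in an exon of Gm16882 and the second in a UTR of the joined gamma record. No other KRAB-ZFP had a peak within 1 kb of an annotated clustered protocadherin start. With 10 annotated starts for the 22 gamma genes of the RefSeq table, peaks at starts missing from vM1 could not be counted. The share of all Zfp661 peaks within 1 kb of a transcript start was not counted. Whether the 4 of 8 exceed that share is therefore not known.

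**Figure D2:**
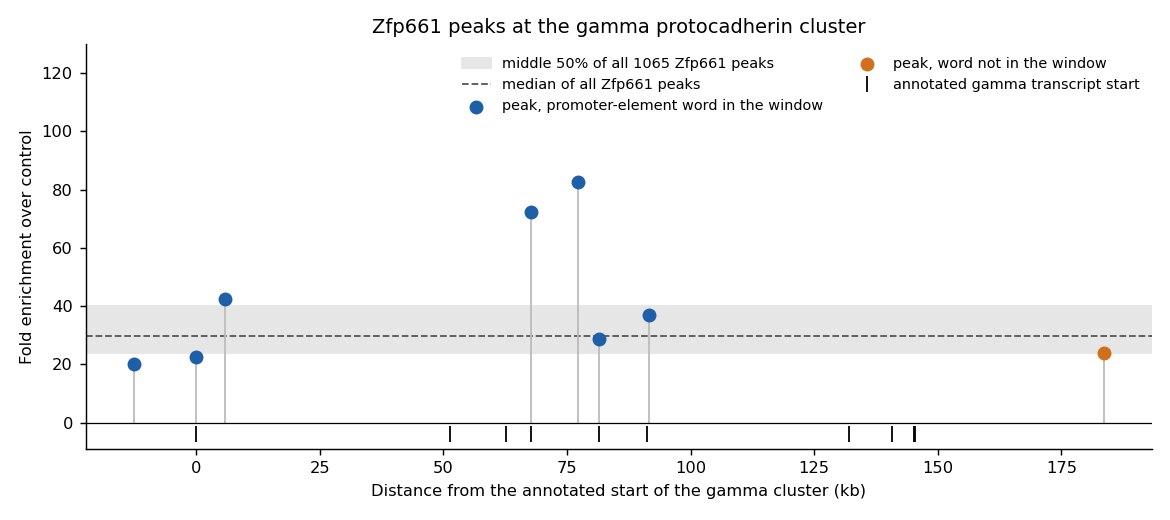
Fold enrichment over control of the 8 Zfp661 peaks at the gamma cluster, against distance in kb from its annotated start, with ticks at the 10 annotated transcript starts. The shaded band is the middle 50% of all 1065 Zfp661 peaks and the dashed line their median of 29.61. Blue points are the 7 windows that hold the 6-letter word described in the text and the orange point is the 1 without it. The peaks at 42.31, 72.4 and 82.72 stand above the band, and 4 of 8 peaks lie at a tick.

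The count of Zfp661 peaks at the joined gamma record, Pcdhgc5, was set beside all 22367 protein-coding genes. A Zfp661 peak lay in the body or within 50 kb of 10.2% of them. Pcdhgc5 had 8, the highest count of any, and 5 or more were found at Pcdhgc5, Wdfy3 and Gm20388. In the gene body alone Pcdhgc5 had 5 and Gm20388 had 7, so that the first rank held for the 50 kb window and not for the body. These ranks are of counts not scaled by length. The joined record has a body of 167.5 kb, against a median of 15.4 kb over all protein-coding genes. The density in the gamma span was 29.8 Zfp661 peaks per Mb, against 0.416 per Mb over the genome. By length, Zfp661 would have had 0.399 peaks in the windows around all clustered genes, where it had 8. Since Zfp661 was assayed in 1 sample, no spread between replicates can be set beside these values.

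The windows shared a short word. The 6 letters CGCTGT, which contain the CGCT core of the conserved promoter element, were noticed after the windows were seen and so serve as a description. They were present in 7 of the 8 Zfp661 gamma windows, in all 7 on the strand of the genes and within 44 bp of the window centre, and the peak in Diap1 was the exception. The word was in 15.2% of the 1056 Zfp661 windows away from protocadherin genes and in 2.90% of the 51946 windows of the other KRAB-ZFPs. Among the 22 clustered-gene windows of other KRAB-ZFPs it was in 0, and among the 57 single-gene windows in 1. In sequence from 250 bp before to 50 bp after the annotated starts, it was in 7 of 11 alpha, 4 of 26 beta and 6 of 10 gamma promoters, against 10.7% of 69965 protein-coding starts. Of the 6 gamma promoters with the word, 3 had a Zfp661 peak within 1 kb. The 7 alpha promoters with the word had none. A pair of windows, the 2 with the highest folds, held an identical run of 64 bp, and the next longest run shared by any pair was 16 bp. Reads confined to that run could have been placed at either copy.

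The core of the CTCF motif was also searched on either strand, since CTCF occupies many clustered protocadherin promoters. It was found in 18.4% of all Zfp661 windows (196 of 1065) and in 2.04% of the windows of all KRAB-ZFPs. It was found in 0 of the 8 gamma windows, and in 0 of all 30 clustered-gene and 57 single-gene windows. It was likewise in 0 of the 11 alpha, 26 beta and 10 gamma promoters, against 1776 of 69965 protein-coding starts. These windows and promoters are too few to tell counts of 0 from the shares beside them. The absence of these letters says nothing of CTCF itself, whose sites can differ from this core. The 8-base word with the largest excess in Zfp661 windows, CAAAGCTG, was in 10.3% of those away from protocadherin genes and in 0.762% of the windows of other KRAB-ZFPs. It was in 0 of 9 near protocadherin genes, a number too small to tell from that share. Higher by ratio were ACAGCGCC, at 8.33 against 0.393%, and CACAGCGC, at 6.53 against 0.378%. Both hold the reverse complement of CGCTGT, and as whole words both were in 0 of the 8 gamma windows.

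The remaining gamma peaks were 6. A Zfp599 peak at chr18:37862775-37862974 had a fold of 25.59 from 51 tags, and a Gm14412 peak at chr18:37881885-37882084 had 20.2 from 114 tags, the latter at the 0.395 percentile of its sample. Both lay in introns of the joined gamma record. The other 4 fell on a single site 22663 to 22824 bp beyond the cluster, in an intron of Diap1. These were Gm13225 at chr18:38024091-38024290 with a fold of 17.01 from 127 tags, Zfp872 with 22.69 from 69 tags, Gm13145 with 21.99 from 77 tags and Gm13235 with 13.71 from 47 tags. The windows overlapped by 50 bp or more from each to the next, and the sequence occurred once in the genome. The Gm13225 peak was at the 97.1 percentile of that KRAB-ZFP, while the other 3 lay between the 45.3 and 70.0 percentiles of theirs. No other site near a protocadherin gene had peaks of more than 2 KRAB-ZFPs.

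At the beta genes AW146154 had a peak at chr18:37449978-37450177, 4417 bp before Pcdhb2, with a fold of 144.02 from 330 tags, in sequence that occurs once. It was at the 95.0 percentile among the 159 peaks of AW146154. The 5 others lay in repeated sequence. Gm14419 and Gm8898 had peaks 6957 and 8496 bp beyond Pcdhb8, with folds of 57.69 and 19.78, at the 97.7 and 92.1 percentiles of their samples. Beyond Pcdhb22, Gm14406 had peaks with folds of 31.06 and 40.77 and Gm14419 one of 6.95. A run of 7 beta genes, Pcdhb11 to Pcdhb17, had no peak within 50 kb. In all, 17 of 24 protein-coding clustered records (70.8%) had a peak, beside 90.9% of all protein-coding genes. The median body of these records was 3.47 kb, against 15.4 kb over all protein-coding genes.

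At the alpha genes 9 of 10 windows were repeated sequence. Inside the joined record Pcdha11, Gm14412, Gm21082 and Gm14406 had 2 peaks each, Gm14419 had 1, and Gm13235 had 1 in sequence that occurs once, with a fold of 12.73 from 25 tags. The 7 repeated ones had folds between 27.64 and 36.02. Before the record, Gm14419 and Gm14401 had peaks 38526 and 40421 bp away, with folds of 27.57 and 12.27. No alpha window lay within 9 kb of an annotated protocadherin start, and the highest fold percentile among them was 69.7.

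The single genes had fewer peaks for their length. The 57 peaks fell in 4.93 Mb of gene bodies and flanks, which is 11.6 peaks per Mb against 20.7 over all chromosomes and 22.98 within 50 kb of any protein-coding gene. They made up 0.108% of all peaks on 0.193% of the sequence. With each KRAB-ZFP given equal weight, the mean share of its own peaks near single protocadherin genes was 0.0844% ± 0.180 (SD, n = 67), lower than the share of sequence by a two-sided sign-flip permutation test over KRAB-ZFPs (difference -0.108 percentage points, p = 2e-05, adjusted p = 0.00012 over 6 tests). It was 0 in 47 KRAB-ZFPs, many of which had too few peaks to place 1 here, and the test assumes values that scatter evenly around their mean, so this p is likely to be too small. KRAB-ZFPs encoded together are also related in sequence and not independent. For the clustered genes the mean share was 0.0436% ± 0.137 (SD, n = 67) against 0.0375% of the sequence, and no difference was found (0.00614 percentage points, permutation p = 0.756, adjusted p = 0.92). With all peaks pooled, the clustered windows had 31.3 peaks per Mb, and 22.9 without Zfp661.

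**Figure D3:**
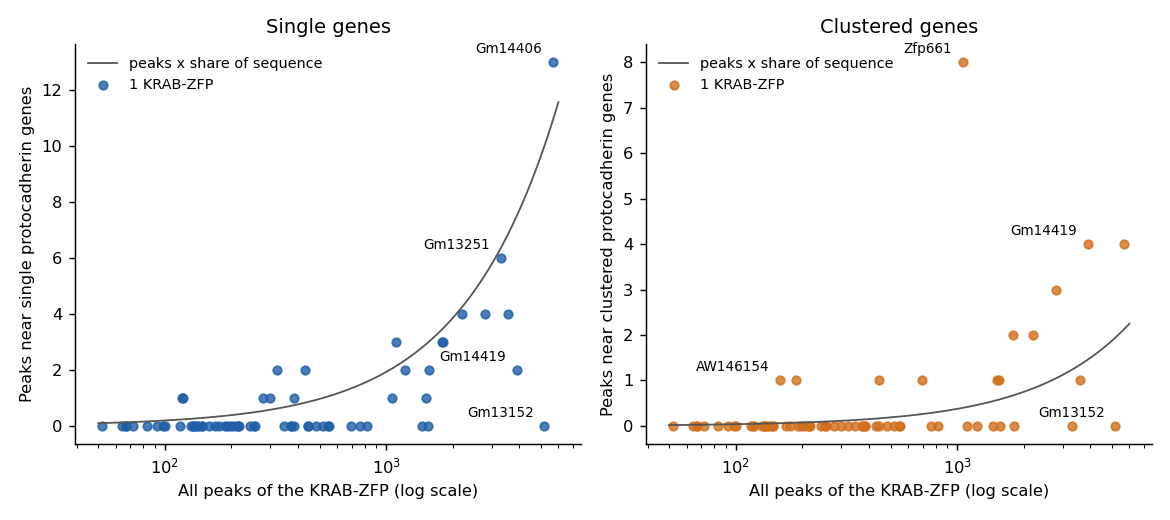
Number of peaks near single (left) and clustered (right) protocadherin genes against all peaks of each KRAB-ZFP on a log scale, with 1 point per KRAB-ZFP. The line is the number that the share of sequence would give. Gm14406 lies at 13 single-gene peaks against 10.97 by length and Gm13152 at 0 against 10.01, and Zfp661 lies at 8 clustered-gene peaks against 0.399.

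Peaks near single genes came from 20 KRAB-ZFPs and those near clustered genes from 13, with 8 in both sets and 42 in neither. The 42 had a median of 194 peaks and the 25 others a median of 1107, so that most of the 42 had too few peaks to place 1 near a single gene by length. Among those with enough, Zfp961 had 0 where length would give 2.81, Zfp759 0 against 1.57 and Zfp617 0 against 1.47. Gm13051, Zfp808 and Gm14326 had 0 against 1.06, 1.05 and 1.00. The largest was Gm13152, with 5189 peaks, which had 0 near single genes where length would give 10.01 and 0 near clustered genes where it would give 1.94. Gm14406, with 5685 peaks, had 13 near single genes against 10.97 by length and 4 near clustered genes against 2.13. Gm13251 had 6 single-gene peaks against 6.36, and Gm13225, Gm14412 and Gm21082 had 4 each against 6.89, 5.38 and 4.26. Gm13235, Zfp457 and Zkscan17 had 3 each. Gm14419 had 2 single-gene peaks against 7.53 by length and 4 clustered-gene peaks against 1.46.

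Of the 12 protein-coding single genes, 11 had a peak, beside 90.9% of all protein-coding genes, and the exception was Pcdh20. The 4 single genes of 400 kb or more, Pcdh15, Pcdh9, Pcdh11x and Pcdh7, all had peaks, as did 100% of the 322 protein-coding genes of that length. Of the 57 peaks, 37 lay in the bodies of single protocadherin genes. By context, 43 lay in an intron of some gene, 14 in intergenic sequence and 0 in an exon. The same split was not made for all peaks, so these counts describe the 57 and have no share beside them.

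**Figure D4:**
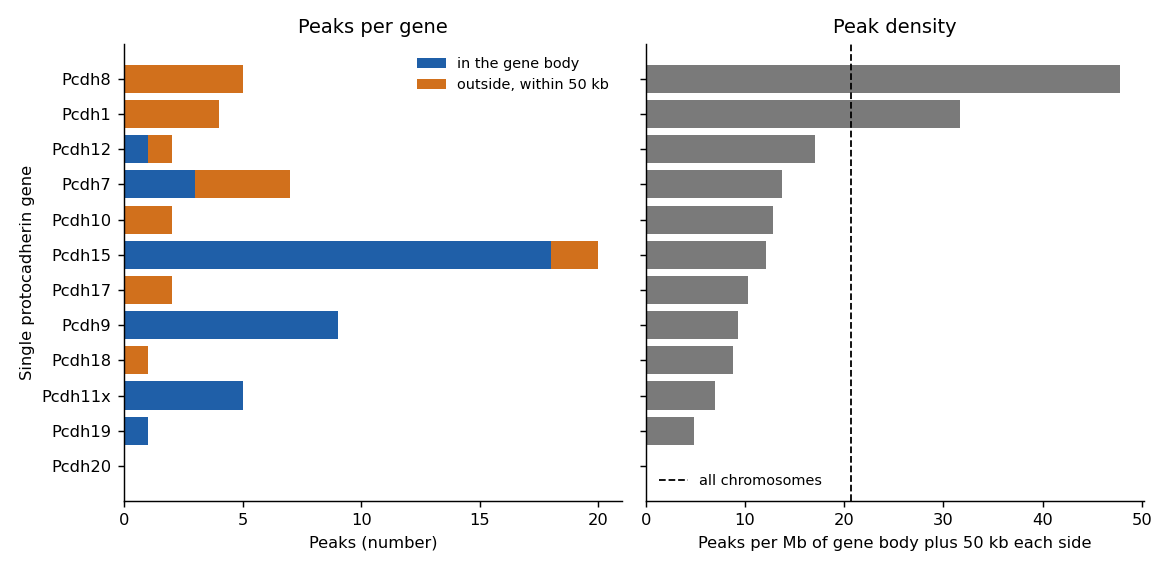
Peaks per single protocadherin gene, split into those in the gene body and those outside it within 50 kb (left), and peaks per Mb of the same window (right), ordered by density. The dashed line is the density over all chromosomes, 20.7 peaks per Mb. Pcdh8 and Pcdh1 lie above the line with 5 and 4 peaks outside their bodies, and Pcdh15, with the most peaks, lies below it.

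The delta-1 genes, which encode single protocadherins with the longer extracellular part, had 25 peaks or 10.7 per Mb. Pcdh7 had 7 peaks from 6 KRAB-ZFPs, with folds from 12.51 to 40.02. Its first peaks lay before the gene in introns of 4932441J04Rik, 1 of Gm14406 and 2 of Gm21082, all in repeated sequence, and 3 lay in its own introns. A Zkscan17 peak 24751 bp beyond the gene, with 8 tags, was at the 82.9 percentile. At chr5:58433214-58433413 Zfp709 (fold 13.36, 19 tags) and at chr5:58433228-58433427 Zfp457 (fold 12.51, 28 tags) shared a site that occurs once. Pcdh9 had 9 peaks from 8 KRAB-ZFPs, all in introns, with folds from 9.8 to 28.19. Its strongest by rank was a Gm14399 peak at the 86.3 percentile of that sample, with 11 tags and a deposited false discovery rate of 48.84%. Pcdh11x, on the X chromosome, had 5 peaks, and at chrX:117491332-117491531 Gm14393 (fold 15.34, 14 tags) shared a site with Gm6710 (fold 22.07, 16 tags), where the Gm14393 peak had a false discovery rate of 100%. Pcdh1, an adhesion protein of airway epithelium, had 4 peaks, all in sequence that occurs once. Among them a Gm14406 peak at chr18:38372435-38372634 lay 827 bp before the start of Pcdh1, in an intron of 2010320O07Rik, with a fold of 34.02 from 69 tags. It was the sole single-gene peak within 1 kb of a protocadherin start and the sole Gm14406 single-gene peak outside repeated sequence.

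The delta-2 genes had 11 peaks or 14.2 per Mb, of which 5 lay near Pcdh8, a protocadherin regulated by neuronal activity. Pcdh8 is 4.53 kb long and its window had the highest density of the single genes, 47.8 per Mb. All 5 peaks lay before the gene, 24376 to 48352 bp from it. The first 4, of Gm21082, Gm8898, Gm14419 and again Gm21082, lay between 24376 and 28410 bp from the gene in repeated sequence with folds of 40.02, 12.39, 38.42 and 42.02, and the last was a Gm13235 peak at 10.21. Pcdh10, an adhesion protein of axons and synapses, had 2 peaks before its start, both in introns of 2610316D01Rik. The nearer was the Zfp661 peak printed above, with a fold of 27.57 from 48 tags, at the 43.3 percentile of Zfp661, and the farther a Gm13251 peak with a fold of 25.98 from 47 tags. Pcdh17 had a Gm14406 peak with a fold of 23.33 and the Zfp457 peak printed above, which had a fold of 16.61 from 27 tags and was at the 96.2 percentile. Pcdh18 had a Gm14412 peak with a fold of 21.08, and Pcdh19, an X-linked gene of epilepsy, a Gm13251 peak in an intron with a fold of 21.35.

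Pcdh15 had 20 peaks from 12 KRAB-ZFPs, 18 of them in its introns, and with a body of 1550 kb its density was 12.1 per Mb. Gm14406 gave 7 of them, all in repeated sequence, with folds from 20.41 to 41.8 and tags from 29 to 66. The highest of these, printed above, was at the 93.4 percentile and the lowest at the 4.83 percentile. Gm13225 and Gm13251 shared 2 sites in this gene. At the first, chr10:72950706-72950905, Gm13225 had a fold of 10.56 from 74 tags and Gm13251 one of 25.61 from 54 tags. At the second, chr10:73505580-73505779, they had folds of 10.46 from 150 tags and 28.27 from 57 tags. At both sites the Gm13225 peak ranked low in its sample, at the 17.02 and 15.1 percentiles, and the Gm13251 peak above its median, at the 65.8 and 79.6 percentiles. A further site, chr10:72973662-72973861, was shared by Gm13235 (fold 13.07, 27 tags) and Zfp709 (fold 14.85, 19 tags). A Zkscan17 peak, chr10:73015431-73015630, was at the 89.5 percentile with 13 tags. Pcdh12, a protocadherin of endothelium, had 2 peaks of Gm13225 in its window, 1 in an intron with a fold of 10.87 and 1 that also counted for Pcdh1 with 10.71.

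Part of the peaks lay in repeated sequence. Windows whose 24-base words occurred a median of 10 times or more in the genome were 26 of 57 near single genes (45.6%) and 14 of 30 near clustered genes (46.7%), beside 34.5% of all windows. Gm14406 gave 12 of the 26, and without it the share near single genes was 31.8% of 44 windows. Near clustered genes it was 38.5% of 26 without Gm14406. The alpha and gamma clusters differed most, with 9 of 10 and 0 of 14. The words typical of each KRAB-ZFP were common in the protocadherin windows of some KRAB-ZFPs and rare in those of others. CAGGAAAC, in 91.9% of Gm14406 windows away from protocadherins and 1.58% of those of other KRAB-ZFPs, was in 16 of 17 Gm14406 windows near them. AGGCAGAG, in 90.6% of Gm21082 windows, was in 6 of 6, and CAGAACTG, in 66.3% of Gm14419 windows, in 4 of 6. GCCTCAGC, in 42.4% of Gm14412 windows, was in 5 of 7. AAAAAAAA, in 74.3% of Gm13225 windows, was in 4 of 5. The words of the other KRAB-ZFPs were less typical of them, in 8.62 to 28.8% of their windows away from protocadherin genes. They were in 0 of 5 windows for Gm13235, 0 of 6 for Gm13251, 0 of 9 for Zfp661, and 1 of 3 each for Zfp457 and Zkscan17. In repeated sequence a read can be placed at any of its copies, so such a peak shows the sequence and not with certainty this copy.

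The height of the peaks was compared within each KRAB-ZFP, since folds from different samples and thresholds cannot be set side by side. For single genes the median percentile per KRAB-ZFP averaged 49.7 ± 25.7 (SD, n = 20), and 11 of 20 KRAB-ZFPs were above 50 (exact two-sided sign-flip permutation test, p = 0.963, adjusted p = 0.963). The values ran from 1.67 for Zfp600 to 83.1 for Gm21082. For clustered genes it averaged 64.8 ± 19.6 (SD, n = 13), and 11 of 13 were above 50 (exact permutation p = 0.0171, adjusted p = 0.0513 over the 6 tests). The lowest was 30.4 for Zfp599 and the highest 97.1 for Gm13225. The difference did not pass the correction. Ranked by score or by tags in place of fold, the mean lay above 50 by 25.6 (exact permutation p = 0.000488) and 23.4 (exact permutation p = 0.000732), both p unadjusted. In gene bodies alone it lay above 50 by 7.86 over 7 KRAB-ZFPs (exact permutation p = 0.203). Of the KRAB-ZFPs, 4 of 13 had a peak at the 1 shared site in Diap1.

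**Figure D5:**
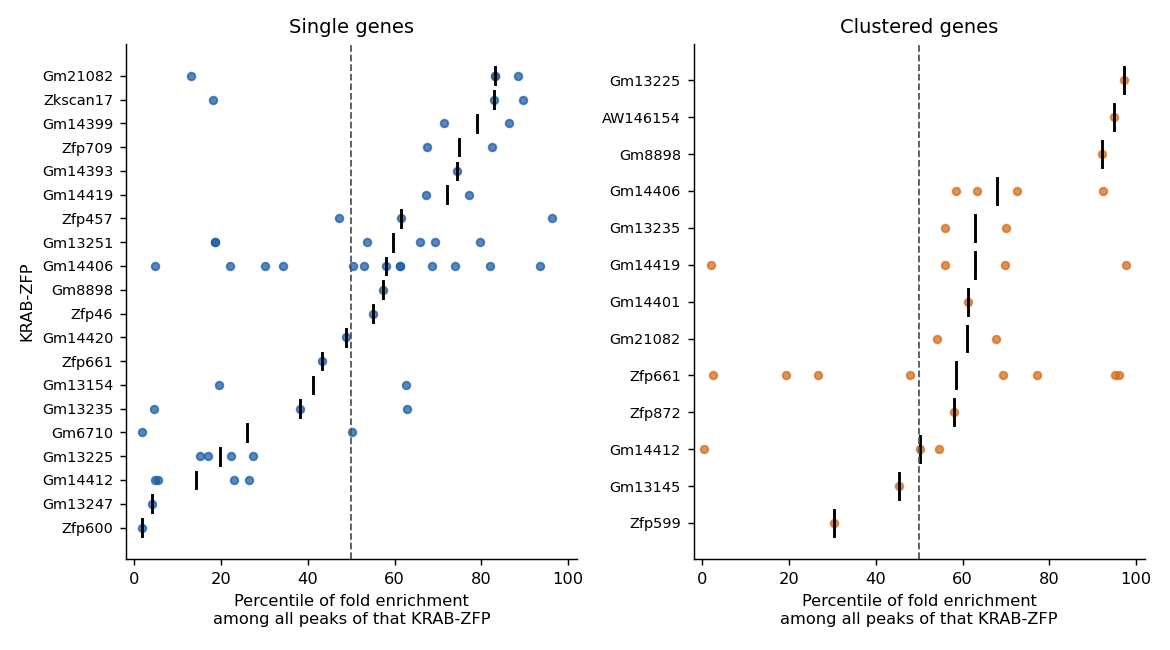
Percentile of the fold enrichment of each peak near single (left) and clustered (right) protocadherin genes among all peaks of its own KRAB-ZFP, with 1 row per KRAB-ZFP and a black bar at its median. The dashed line is the 50th percentile. For single genes 11 of 20 medians lie above it and for clustered genes 11 of 13.

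Between setups, the share near single genes was tested for cell lines and for tags, and neither difference passed the threshold. It was 0.0803% ± 0.177 (SD, n = 58) in F9 EC cells and 0.111% ± 0.209 (SD, n = 9) in ES cells (permutation p = 0.681, adjusted p = 0.92). In F9 EC cells it was 0.0721% ± 0.119 (SD, n = 18) for FLAG-tagged KRAB-ZFPs. It was 0.0565% ± 0.162 (SD, n = 30) for HA-tagged ones called against input plus HA_control (permutation p = 0.767, adjusted p = 0.92). The 10 HA-tagged KRAB-ZFPs called against Gm14296_control were left out of the tag test, and their mean share was higher, at 0.166%. Between F9 EC and ES samples the cells, antibody, control and threshold changed together. Within F9 EC cells the antibody and its control ChIP changed together, and thresholds varied in both groups. The proteins differed in each comparison, so both tests compare sets of proteins. With enrichment over 20 and p under 1e-10 for all KRAB-ZFPs, the FLAG share exceeded the HA share by 0.0453 percentage points (permutation p = 0.0145, unadjusted) and the F9 to ES difference changed sign. Permutation p of 0.681 and 0.767 do not show that the setups act alike. The share near clustered genes was not tested between setups. In F9 EC cells it was 0.00658% for FLAG-tagged KRAB-ZFPs, 0.0797% for HA-tagged ones with HA_control and 0.0178% for those with Gm14296_control. A peak near clustered genes came from 2 of the 18, 6 of the 30 and 2 of the 10, and Zfp661, with HA_control, had the highest share, 0.751%.

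The other cadherin genes and the regulators of protocadherins gave the frame. Of 49 other cadherin superfamily genes, such as the classical cadherins, desmosomal cadherins and Fat and Celsr genes, 49 had a peak, beside the 90.9% of all protein-coding genes, at 17.2 peaks per Mb, between the single protocadherins at 11.6 and all protein-coding surroundings at 22.98. The most per Mb were at Cdh3, which encodes P-cadherin, with 13 peaks, Cdh24 with 8 and Cdhr4 with 7, and 4 of the 49 genes had a Zfp661 peak, beside the 10.2% background. Of 29 regulators and partners of the protocadherins, 27 had a peak at 22.2 per Mb. The most per Mb were at Setdb1, a histone H3K9 methyltransferase, with 11 peaks, Smc3, a cohesin subunit, with 10, and Trim28, which encodes the KRAB corepressor KAP1, with 7.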

How the data were processed

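ChIP-seq peaks of tagged KRAB-ZFPs, 1 sample each, were taken from the deposited table. Per the labels, and as the study's methods state, the authors aligned to mm9 with Bowtie or Bowtie2, placed reads with several equally good positions pseudo-randomly, called peaks per sample with MACS 1.4.2 and set them to 200 bp around the summit. Thresholds differed between samples, with p at 1e-10 or 1e-05 and enrichment at 20, 10 or none. The authors deposited tags as raw counts, a score (10 times the negative log10 of p), fold enrichment as a ratio, a false discovery rate as a percent, and positions and widths in bp. Library depth is unknown. Of 53255 peaks, 244 under a name with no label were not used, and none lay near a protocadherin gene.

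Genes were read from gencode vM1 and sequence from NCBIM37, which is mm9; coordinates count from 1. Densities use ungapped sequence. Copy number was the median count of a window's 24-base words over the genome, both strands. Sites were shared where windows overlapped by 50 bp. Tests were sign-flip or label permutations over KRAB-ZFPs (100000 resamples, or exact up to 20), Benjamini-Hochberg adjusted, threshold 0.05, in Python 3.11.15 with numpy 2.4.6 and pandas 2.3.3. They were tried on simulated data. Without a true difference, the sign-flip test of shares passed 0.05 there more often than that threshold allows. Named were all single genes, the clustered records with a peak in the body and all peaks at clustered genes. Near single genes, the peaks at a start, shared or high in fold percentile were named. Alternatives were distance, threshold, KRAB-ZFPs left out and the ranked measure. Members, lists and tests were chosen with earlier results of these data known.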

Additional observations from a re-analysis of the deposited data

Results flagged for a closer look

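In the 9 ES samples, the share of peaks near single protocadherin genes was highest for Gm14399, at 0.621%, and its gap to the next sample, at 0.261%, was large for the range of the group. The share rests on 2 of 322 peaks, with 11 and 12 tags and false discovery rates of 48.84 and 44.55%. The shares near single and clustered genes were examined in the 9 ES samples and in the 10 F9 samples with the other control ChIP. The larger F9 groups were not. Chance flags about 1 in 20 groups of normally distributed values. Of the 9 ES shares near single genes 5 were 0, so that rate may not hold here.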

How the results depend on the processing

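The lower share of peaks near single protocadherin genes kept its direction and passed the threshold under all 8 alternatives tested. Each used the same sign-flip test over KRAB-ZFPs, whose p is likely to be too small. With all peaks pooled, a value with no test that was added after the data were seen, the difference was -0.0854 percentage points for single and 0.0191 for clustered genes. The clustered share, which had not differed, turned below the sequence share in gene bodies alone (-0.0059), within 10 kb (-0.00168), without Zfp661 (-0.00458) and within 50 kb of protein-coding genes (-0.00232), with permutation p from 0.593 to 0.921. The F9 to ES difference in single share changed sign to 0.0227 with p under 1e-10 and enrichment over 20 for all KRAB-ZFPs and to 0.0374 with enrichment over 10, and the FLAG to HA difference fell to -0.0149 within 10 kb and rose to 0.0453 (permutation p = 0.0145) with enrichment over 20. The clustered fold percentile exceeded 50 by 25.6 (exact p = 0.000488) ranked by score and 23.4 (exact p = 0.000732) by tags, and by 7.86 (exact p = 0.203) in gene bodies and 16.9 (exact p = 0.0508) within 10 kb. In gene bodies alone there were 37 single-gene peaks, 15 clustered-gene peaks, 7 KRAB-ZFPs at clustered genes and 6 single genes with a peak. Within 10 kb there were 19 clustered-gene peaks and within 100 kb 87 single-gene peaks. With enrichment over 20 there were 35 single-gene peaks from 9 KRAB-ZFPs, and with enrichment over 10 they came from 13. Windows that occur once left 29 single-gene and 16 clustered-gene peaks, a setting added after the data were seen. Of 64 alternatives in all, 41 kept their direction and side of the threshold or stayed within 1.5 times the main count. No paired analysis was possible because each sample is a different protein and replicate numbers only follow the order of the samples. The unknown depth, the absence of replicates and the differing thresholds limit all counts.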

Other observations

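Neighbouring peaks near protocadherin genes repeated their spacing. A Gm14419 and a Gm21082 peak lay 305 bp apart in the alpha cluster and 286 bp apart before Pcdh8, and a Gm14419 and a Gm8898 peak lay 1539 bp apart beyond Pcdhb8 and 1534 bp apart before Pcdh8. Away from protocadherin genes, 17.2% of Gm14419 peaks had a Gm21082 peak at 250 to 350 bp and 26.2% had a Gm8898 peak at 1400 to 1700 bp, ranges that were chosen after the spacings were seen. The 24-base words of these windows occurred a median of 445 to 1990 times in the genome.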
